A study of Mus musculus with 3 samples.

Results

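Nuclear genes of the mitochondrial respiratory chain were examined in the C2C12 line, mouse myoblasts (muscle precursor cells) able to fuse into myotubes. Genes were taken by symbol alone: the succinate dehydrogenase genes Sdha to Sdhd, Cyc1, and symbols beginning with Ndufa, Ndufb, Ndufc, Ndufs or Ndufv, Uqcr, Cox4 to Cox8 or Atp5, without the Ndufaf assembly factors. This gave 80 genes with 151 probe sets, out of 12393 genes with 20380 probe sets that carry 1 gene symbol. The groups were a culture transfected by FuGene reagent with DGK-zeta (diacylglycerol kinase zeta), a lipid kinase that turns diacylglycerol into phosphatidic acid, a culture given the green fluorescent protein EGFP in the same way, and an untreated culture. All were cultured for 18 h before the time of transfection, carry the time label 12 h, and gave total RNA. Each group had 1 array, so no difference has a replicate check, no test across arrays can be run, and sizes alone are given. The sources used here do not give the promoter of either construct or the share of cells transfected, and each array read the whole culture, in which fewer cells of a kind and less RNA per cell cannot be told apart.

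The respiratory chain moves electrons from NADH and succinate to oxygen and uses the energy to pump protons across the inner mitochondrial membrane. Complex I oxidises NADH, complex II oxidises succinate, complex III passes electrons from ubiquinol to cytochrome c, complex IV reduces oxygen, and complex V, the ATP synthase, lets protons back through and makes ATP. Most subunits are encoded in the nucleus and a few in mitochondrial DNA, so the 2 genomes have to be expressed in step, and skeletal muscle, which relies on this pathway during sustained work, uses its own isoforms of several complex IV subunits. Nuclear respiratory factor 1 (NRF1), the ETS-family factor GABPA and YY1 are known to act on promoters of many of these genes.

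Promoter letters for these factors could be read for 65 of the 80 genes, which matched 70 windows in the RefSeq table (assembly GRCm38.p6), each running from 250 bases before to 50 bases after a gene start. The NRF1 letters GCGCANGCG, searched on both strands, were in 18 of the 70 windows (25.7%), against 15.7% of the 6854 windows of genes measured on all arrays and 6.25% of all 32851 windows. The ETS letters CCGGAAG were in 17 windows (24.3%), against 20.5% and 8.86% of the same backgrounds, and the YY1 letters AAGATGGCG in 6 windows (8.57%), against 3.62% and 1.40%. The letters TATAAA, of the TATA box, were in 8 windows (11.4%), against 6.76% and 13.6%. NRF1 and ETS letters were both in 6 windows (8.57%), against 3.62% and 1.21%. The NRF1 letters are close to a palindrome, so matches on opposite strands can overlap. The 4 genes with NRF1 and ETS letters both wholly upstream of the start are printed 5′ to 3′ on the gene's own strand, with the matches in capitals. They encode the membrane anchor of complex II (Sdhd, chr9:50603874-50603943, minus strand), the ubiquitous form of a complex IV subunit (Cox6a1, chr5:115348959-115349135, minus strand), the d subunit of the peripheral stalk of ATP synthase (Atp5h, chr11:115419936-115420075, minus strand) and its g subunit (Atp5l, chr9:44920933-44920992, minus strand). A match is a description of the letters only.
Sdhd: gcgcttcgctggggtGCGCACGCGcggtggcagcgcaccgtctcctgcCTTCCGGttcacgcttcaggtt
Cox6a1: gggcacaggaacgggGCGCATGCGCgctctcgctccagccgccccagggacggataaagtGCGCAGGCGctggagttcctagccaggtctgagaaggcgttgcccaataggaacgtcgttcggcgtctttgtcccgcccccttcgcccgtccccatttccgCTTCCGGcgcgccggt
Atp5h: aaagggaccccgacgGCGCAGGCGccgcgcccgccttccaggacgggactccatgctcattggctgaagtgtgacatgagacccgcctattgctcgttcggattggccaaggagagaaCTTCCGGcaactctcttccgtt
Atp5l: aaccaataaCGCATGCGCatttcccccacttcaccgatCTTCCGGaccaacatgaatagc

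Values are MAS5 signals, 1 per probe set, on a linear scale set per array by the depositors. A gene was read from its brightest probe set and counted as measured at a signal of 107 or more, the median of all values pooled, and values under this floor were set to it before a log2 ratio was taken. Median signals over all probe sets were 92.5 on the DGK-zeta, 119 on the EGFP and 111 on the untreated array. The transfected gene, Dgkz, had a signal of 13466 in DGK-zeta cells, against 1053 with EGFP and 1500.1 without treatment. The ratio of the 3′ to the 5′ control probe set of Actb was 2.55 with DGK-zeta, 1.43 with EGFP and 1.27 in untreated cells, and that of Gapdh was 0.931, 0.902 and 0.841 in the same order. Its part in the results was not tested. Of 10 myoblast markers, 9 were measured on all 3 arrays. The 10 together had summed signals of 25516, 29174 and 27625 in DGK-zeta, EGFP and untreated cells. Most of each sum came from 1 gene, Vim, with 20590, 24189 and 22739.5 in the same order. Of the 9 measured markers, 3 had ratios above 0 over EGFP and 6 below, with a median of -0.32. Ncam1, an adhesion molecule of myoblasts, had 186 with DGK-zeta, 459 with EGFP and 428 in untreated cells by its brightest probe set, log2 ratios of -1.31 and -1.20. Its other measured probe set had 240.8, 286 and 205, at -0.25 over EGFP and 0.23 over untreated, so the 2-fold difference and the direction over untreated did not hold across probe sets. Myf5, a regulator of early myoblasts, had 2036, 1227 and 1058, highest with DGK-zeta at 0.73 and 0.94. The unmeasured marker was Myod1, a master regulator of the lineage, which lay under the floor on every array at 23.7, 26.5 and 35.1. A signal under the floor does not by itself show that its transcript is absent. Of 12 markers of differentiated muscle, 11 were under the floor on every array and Acta1 on the DGK-zeta array, with sums of 282, 362 and 352, and of 11 markers of other cell types only Tubb3 was measured, with sums of 366, 416 and 392. The part of these levels in the results was not tested.

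Respiratory chain genes gave bright signals in myoblasts. Of the 80 genes, 74 (92.5%) were measured on all 3 arrays, against 51.9% of all genes, and the other 6 were under the floor on all 3. A mean signal of 1000 or more was reached by 72 genes (90%), against 18.7% of all genes. Every measured gene passed on all arrays, so none entered through 1 group alone. By role Cox7a2l is a supercomplex assembly factor and no subunit, and Ndufa4 is counted here with complex IV. A further 8 probe sets that carry the symbol of such a gene together with another were not used.

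The genes under the floor were mostly isoforms of complex IV that other tissues use. Cox6a2, the heart and skeletal muscle form of subunit VIa, had signals of 49.8 with DGK-zeta, 75.6 with EGFP and 54.3 in untreated cells, and Cox7a1, the muscle form of subunit VIIa, had 34.4, 20.4 and 24.9 in the same order. Cox8b, the muscle form of subunit VIII, had 3.52 with DGK-zeta, 5.83 with EGFP and 7.37 in untreated cells. All 3 muscle forms thus stayed under the floor whether or not the cells had been transfected, as did nearly all markers of differentiated muscle. Cox4i2, a form known from lung and from oxygen-responsive cells, had 23.1, 12.0 and 22.2, and Cox6b2, the testis form, had 16.4, 22.1 and 22.8. Cox7c, a subunit with no tissue forms, was the remaining gene under the floor, with 88.8, 67.0 and 105 by the brighter of its 2 probe sets. Whether these 2 probe sets detect the Cox7c transcript was not tested. A signal under the floor does not by itself show that a transcript is absent, for Cox7c or for the isoforms above.

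The ubiquitous counterparts of the tissue isoforms were all measured, and by their brightest probe sets were within 1.5-fold between arrays. Cox4i1 had signals of 9479 with DGK-zeta, 8145 with EGFP and 8555 in untreated cells, a log2 ratio of 0.22 over EGFP and 0.15 over untreated. Cox6a1 had 7691, 8832 and 8284 (log2 ratios of -0.20 and -0.11), with its highest signal on the EGFP array, while its second probe set had 2854, 2956 and 3057, highest in untreated cells. Cox6b1 had 9974, 9236 and 10721 (0.11 and -0.10), highest in untreated cells, and its second probe set had 4947, 5925 and 7103, at -0.26 over EGFP and -0.52 over untreated. Cox7a2 had 12197, 11156 and 10042 (0.13 and 0.28), highest in DGK-zeta cells, and its second probe set had 6004, 4912 and 5519.7 (0.29 and 0.12). Cox8a had 1677, 1927 and 2306 (-0.20 and -0.46), lowest in DGK-zeta cells, and its second probe set gave the same order with 1413, 1659 and 1919. Cox8c, a testis form, lay close to the floor at 129 with DGK-zeta, 171 with EGFP and 123 in untreated cells.

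**Figure D1:**
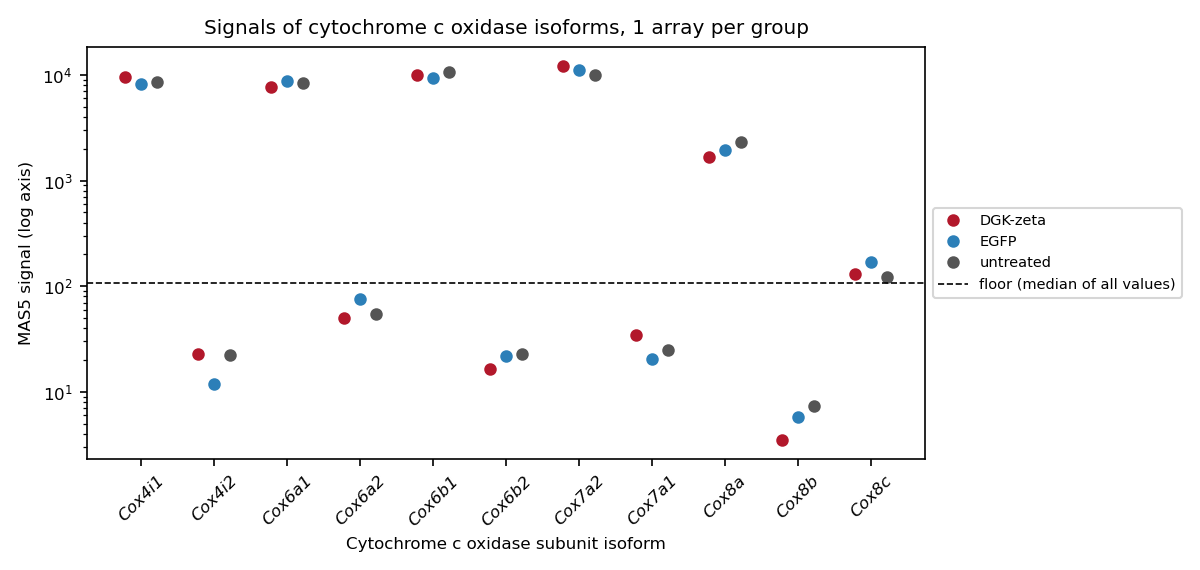
MAS5 signals (log axis) of complex IV subunit isoforms on the DGK-zeta, EGFP and untreated arrays, with 1 point per array and the floor of 107 as a dashed line. The muscle forms Cox6a2, Cox7a1 and Cox8b lie under the floor on all 3 arrays, while Cox4i1, Cox6a1, Cox6b1, Cox7a2 and Cox8a lie above 1000; signals of different genes come from different probes and are not compared.

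Against EGFP-transfected cells, no respiratory chain gene was 2-fold apart in DGK-zeta cells. The count was 0 of 74 higher and 0 of 74 lower, where 0.347% of the 6926 measured genes passed 2-fold on the higher side and 2.84% on the lower side. At 1.5-fold the counts were 0 higher and 1 lower, against 3.51% and 11.6% of all genes. Of 2247 genes outside the chain with a mean signal of 1000 or more, 4 were 2-fold higher and 21 lower. At 1.5-fold 71 of these bright genes were higher and 101 lower, so all genes are not a background of like brightness. The median log2 ratio of the chain was 0.09, and 49 of 74 genes (66.2%) were above 0, while all measured genes had a median of -0.02 with 47.4% above 0. Genes with a mean signal of 1000 or more that are not in the chain had a median of 0.09 with 62.3% above 0 (n = 2247), so the median of the chain was that of other bright genes. Quantile normalization put the chain at 0.03 and all genes at 0.05, the reverse order, and scaling to equal medians of all probe sets with 1 symbol, a shift of 0.36 in every log2 ratio of DGK-zeta over EGFP, put them at 0.46 and 0.33. Chain genes ran from -0.81 to 0.52, with the middle of the distribution between -0.07 and 0.25 (quartiles). The spread of log2 ratios among chain genes was 0.24 (SD, n = 74 genes), against 0.35 among the other bright genes and 0.43 among all genes.

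**Figure D2:**
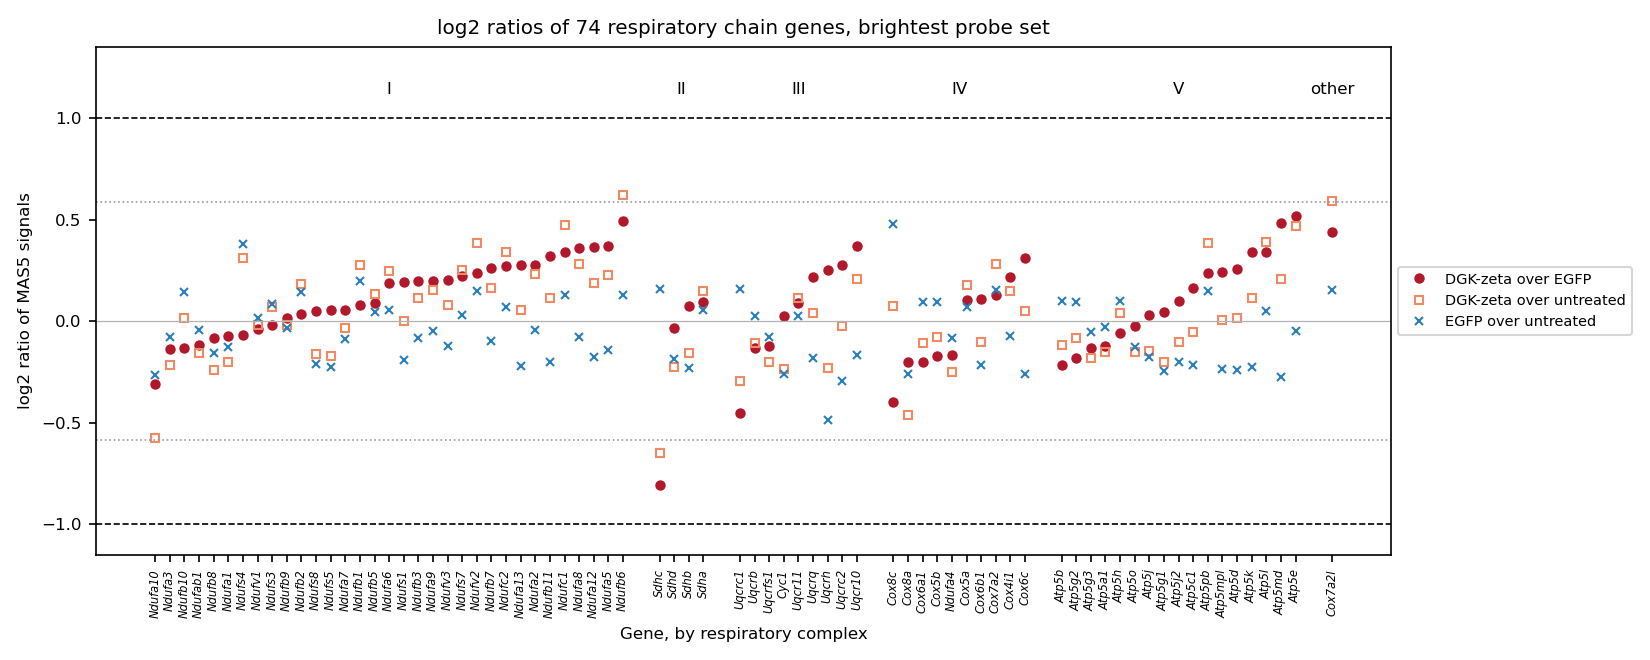
log2 ratios of the 74 measured respiratory chain genes by complex, for DGK-zeta over EGFP (filled circles), DGK-zeta over untreated (open squares) and EGFP over untreated (crosses), 1 array per group. Dashed lines mark 2-fold and dotted lines 1.5-fold; no point passes 2-fold, Sdhc is lowest in complex II, and most complex I genes lie above 0 in the ratios of DGK-zeta.

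Complex I had the highest median ratio of the 5 complexes in both comparisons of DGK-zeta cells. Of its 33 genes, 24 (72.7%) were above 0 against EGFP and 23 (69.7%) against untreated, with medians of 0.19 and 0.12. The other bright genes had 62.3% and 56.4% above 0, with medians of 0.09 and 0.06. With quantile normalization the medians of complex I were 0.13 and 0.06, where those of all genes were 0.05 and 0.05, so over untreated complex I lay level with all genes. The scalings to equal medians move all genes alike and leave the distance of complex I to them nearly as it was. The DGK-zeta array held the highest of the 3 signals for 20 of the 33 genes (60.6%), against 38.8% of the 6434 genes measured on all arrays. That share was not taken for bright genes alone, which lean to higher ratios of DGK-zeta than all genes do. The core subunits, among them those that carry the flavin and the iron-sulphur clusters, had a median of 0.12 over EGFP (n = 6), and the accessory ones, which surround the core, of 0.19 (n = 27).

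Ndufb6, an accessory subunit of the membrane arm, had signals of 4885 with DGK-zeta, 3475 with EGFP and 3179 in untreated cells. It was the highest gene of complex I in both ratios of DGK-zeta, 0.49 over EGFP and 0.62 over untreated, but its second probe set (3031, 2691 and 2959.7) gave 0.17 and 0.03. Ndufa10, another accessory subunit, was the lowest, with 1908, 2365 and 2843, at -0.31 and -0.58. Ndufv2, the core subunit that holds an iron-sulphur cluster next to the flavin, had 4962, 4205 and 3796 and gave 0.24 and 0.39. Its other 2 probe sets gave 0.46 and 0.59 over EGFP, and 0.51 and 0.60 over untreated, so all 3 were highest in DGK-zeta cells. Ndufv1, the flavin-binding core subunit, had 2239, 2297 and 2269, nearly equal on the 3 arrays, though the dimmest of its 3 probe sets gave -0.32 over EGFP. Ndufs1, the largest core subunit, had 2361, 2067 and 2359, lowest in EGFP cells.

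In complex II the anchor subunit Sdhc had the lowest ratio of any chain gene. Its brightest probe set had a signal of 1077 in DGK-zeta cells, 1882 in EGFP cells and 1688 in untreated cells, which is 1.75-fold lower than EGFP and 1.57-fold lower than untreated. DGK-zeta cells were thus lower than both other cultures by this probe set, and it was the 1 chain gene past 1.5-fold against EGFP. The second Sdhc probe set had 447, 466 and 609.6, with log2 ratios of -0.06 over EGFP and -0.45 over untreated in place of -0.81 and -0.65. Scaled to equal medians of all probe sets with 1 symbol, the brightest one was 1.36-fold lower than EGFP and 1.31-fold lower than untreated. Sdha, the flavoprotein that oxidises succinate, had 2627 with DGK-zeta, 2459.7 with EGFP and 2369.8 in untreated cells, the highest ratio of the complex over EGFP at 0.09. Its second probe set gave 0.11. Sdhb, the iron-sulphur subunit, had 3779.6, 3592 and 4211, and Sdhd, the other anchor, had 2279.8, 2337 and 2663, both highest in untreated cells. The median of the 4 genes was 0.02 over EGFP and -0.19 over untreated; quantile normalization put the first at -0.07, where all genes were at 0.05, and equal medians of all probe sets with 1 symbol put the second at 0.07, where all genes were at 0.24.

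Complex III had a median of 0.09 over EGFP and -0.11 over untreated (n = 9), the second of which was 0.16 with equal medians of all probe sets with 1 symbol, where all genes were at 0.24. Over EGFP, quantile normalization put complex III at 0.03 and all genes at 0.05, the reverse of the main order (0.09 and -0.02). Uqcr10, a small subunit, was the highest over EGFP at 2488 with DGK-zeta, 1922 with EGFP and 2157 in untreated cells, a log2 ratio of 0.37, and its other 2 probe sets gave 0.39 and 0.32. Uqcrc1, a core protein of the matrix side, was the lowest with 2445, 3342 and 2993, a log2 ratio of -0.45 over EGFP and -0.29 over untreated, and it had 1 probe set. The redox subunits were close to even between the transfected cultures. Cyc1, which carries cytochrome c1, had 5769 with DGK-zeta, 5673 with EGFP and 6797 in untreated cells, and Uqcrfs1, the Rieske iron-sulphur protein, had 2569.8, 2798 and 2951.

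The measured complex IV genes had a median of -0.03 over EGFP and -0.01 over untreated (n = 10), with 5 above 0 in each. All genes had -0.02 in each. With quantile normalization complex IV was at 0.0016 and -0.02 and all genes at 0.05 in each, and with equal medians of all probe sets with 1 symbol, which move every gene alike, complex IV was at 0.33 and 0.25 and all genes at 0.33 and 0.24. Cox6c, a small nuclear subunit, was highest over EGFP at 0.31, from signals of 8926 with DGK-zeta, 7189 with EGFP and 8606 in untreated cells. Lowest was Cox8c at -0.40, whose signals near the floor are given above. Ndufa4 had 3604, 4047 and 4290.1, lowest in DGK-zeta cells. The 4 measured probe sets of Cox5b, a subunit of the matrix side, gave log2 ratios over EGFP between -0.24 and 0.04, and 3 of them have the suffix of sets that may bind other transcripts.

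Complex V had a median of 0.10 over EGFP and -0.05 over untreated (n = 17), and the second was 0.21 and 0.04 with the scalings to equal medians of all and of measured probe sets, where all genes were at 0.24 and 0.08. Over EGFP, quantile normalization put complex V at 0.0014 and all genes at 0.05, the reverse of the main order (0.10 and -0.02). In the catalytic head, Atp5b, the beta subunit that makes ATP, was the lowest of the complex over EGFP, at 9122 with DGK-zeta, 10602 with EGFP and 9879 in untreated cells, a log2 ratio of -0.22. Atp5e, the epsilon subunit of the central stalk, was the highest, with 1757, 1225 and 1269, at 0.52 over EGFP and 0.47 over untreated. Atp5a1, the alpha subunit, had 7514, 8174 and 8342 by its brightest probe set (-0.12 over EGFP) and 5772, 4142 and 3954 by the next (0.48). The order of the arrays was thus opposite between those probe sets. The c-ring genes Atp5g1, Atp5g2 and Atp5g3 encode the same mature protein, and gave 0.04, -0.18 and -0.13 over EGFP. Of the membrane subunits, Atp5k (e) gave 0.34, Atp5l (g) 0.34, Atp5j2 (f) 0.10, Atp5md 0.48 and Atp5mpl 0.24 over EGFP, all above 0. Of the other bright genes, 62.3% were above 0 in this ratio. Over untreated the same 5 genes gave 0.12, 0.39, -0.10, 0.21 and 0.01. In the peripheral stalk, Atp5pb gave 0.24, Atp5j 0.03, Atp5o -0.03 and Atp5h -0.06 over EGFP. The second probe set of Atp5h had 7411 with DGK-zeta, 5442 with EGFP and 4842 in untreated cells, which gave 0.45 over EGFP in place of -0.06. The second probe sets of Atp5pb and Atp5o gave -0.12 and 0.36 over EGFP. The signs of Atp5pb, Atp5o and Atp5h thus did not hold across probe sets, and that of Atp5j, with 1 probe set, could not be checked.

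Against untreated cells, which differ from DGK-zeta cells by the kinase and by transfection, chain genes were again within 2-fold. The comparison shares the DGK-zeta array with the one above. Past 2-fold were 0 of 74 genes on the higher and 0 on the lower side, against 1.34% and 2.8% of all 6866 measured genes. At 1.5-fold 2 were higher and 1 lower, against 7.09% and 9.93%. The lower one was Sdhc, and the higher ones were Ndufb6 and Cox7a2l, whose signals were 3017 with DGK-zeta, 2223 with EGFP and 2001 in untreated cells. The other 2 probe sets of Cox7a2l gave 0.27 and 0.38 over untreated in place of 0.59. With quantile normalization both higher genes were under 1.5-fold. The median of the chain over untreated was 0.03 with 41 of 74 genes above 0, that of all genes was -0.02, and that of the other bright genes was 0.06 with 56.4% above 0. Of those 2247 bright genes, 18 were 2-fold higher and 31 lower, and at 1.5-fold 161 were higher and 110 lower. Quantile normalization put the chain at -0.03 and all genes at 0.05.

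EGFP-transfected cells, set against untreated cells, had the narrowest spread. Past 2-fold were 0 of 74 genes on either side, against 0.361% higher and 0.303% lower among all 6932 measured genes, and at 1.5-fold 0 were higher and 0 lower, against 4.13% and 1.51%. Of the 2247 other bright genes, 3 were 2-fold higher and 1 lower, and at 1.5-fold 29 were higher and 13 lower. The median log2 ratio of the chain was -0.07 with 29 of 74 genes above 0, where all genes had 0.02 and the other bright genes -0.01. Under the 3 other scalings it lay between -0.17 and -0.06, and all genes between -0.08 and 0.01. Complex III and V genes had the lowest medians, -0.17 and -0.13. Uqcrh, the hinge protein of complex III, was the lowest single gene, with 3991 in EGFP and 5585 in untreated cells (-0.48), and had 4757 in DGK-zeta cells. Among the 3 arrays the EGFP array held the lowest signal for 33 of 74 genes (44.6%), against 27.6% of all genes measured on every array, and the DGK-zeta array the highest for 36 (48.6%), against 38.8%. These shares were not taken for bright genes alone. The other bright genes were above 0 in 46.7% for EGFP over untreated and 62.3% for DGK-zeta over EGFP, against 53.7% and 47.4% of all genes. Bright genes outside the chain thus lean the same way.

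**Figure D3:**
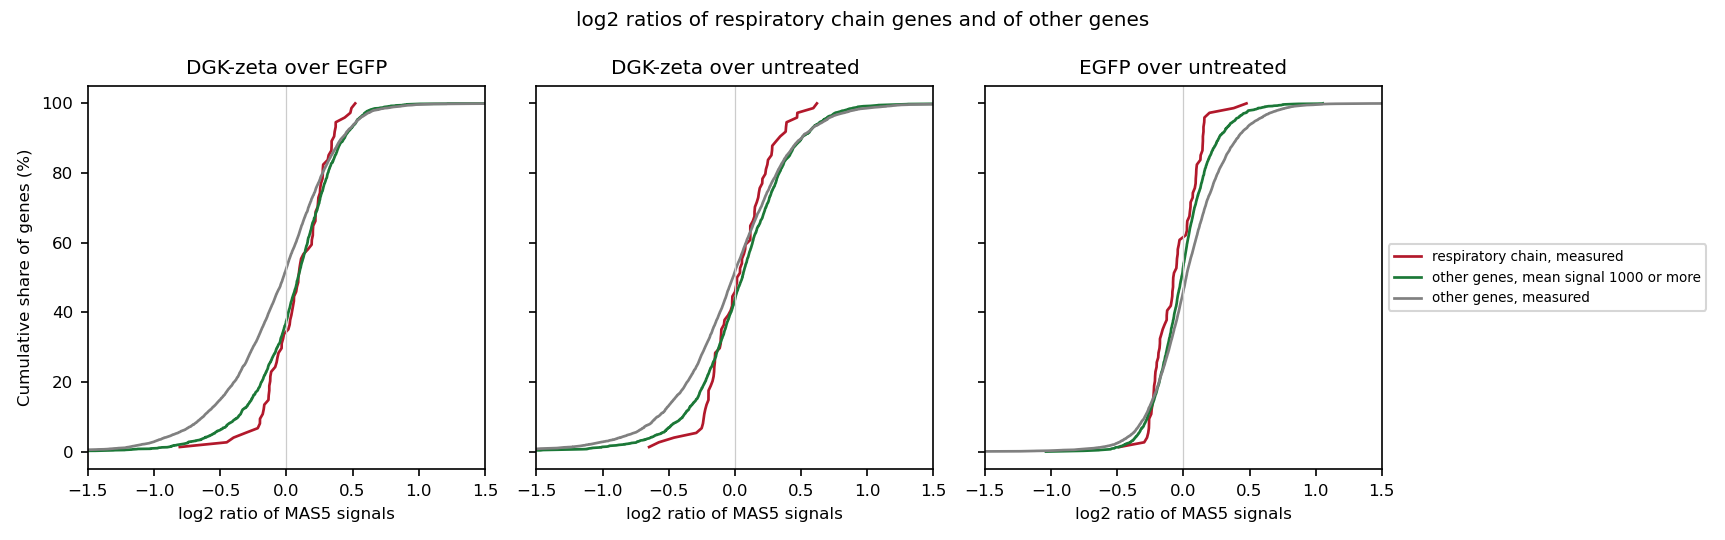
Cumulative share of genes (%) by log2 ratio for the 74 measured respiratory chain genes (red), other genes with a mean signal of 1000 or more (green) and measured genes outside the chain (grey, which holds the green ones), with a panel per comparison. The red points have the narrowest spread in each panel, with an SD of 0.24, 0.25 and 0.17, and in the first panel the red and green medians are both 0.09.

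Different probe sets of a gene give the only measure of error within these arrays. It covers probes on 1 RNA extract and leaves out the spread between cultures. Among the 38 chain genes whose 2 brightest probe sets reached the floor on every array, the difference between them gave an SD of 0.22 per probe set in the log2 ratio of DGK-zeta over EGFP, 0.30 over untreated and 0.21 for EGFP over untreated. Over all genes with such pairs (n = 2251) the values were 0.40, 0.50 and 0.27. The spread among chain genes (0.24, 0.25 and 0.17) was thus of the size of the disagreement between probe sets of 1 gene. Directions of the brightest and second-brightest probe sets matched in 24 of 38 genes for DGK-zeta over EGFP (63.2%), 28 for DGK-zeta over untreated (73.7%) and 20 for EGFP over untreated (52.6%), against 58.0%, 56.1% and 58.4% of all genes with pairs. No chain gene had probe sets that differed by 1 or more on the log2 scale over EGFP. The widest gap was that of Atp5d, the delta subunit of ATP synthase, whose brightest probe set had 7409 with DGK-zeta, 6208 with EGFP and 7331 in untreated cells. Its other probe set had 2174, 3431 and 3300, so one gave 0.26 and the other -0.66 over EGFP.

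A pair of genes, named after their values were seen, passed 2-fold by a second probe set. The second probe set of Cox6c had 5009.6 with DGK-zeta, 3425 with EGFP and 1931 in untreated cells, 2.59-fold higher in DGK-zeta than in untreated cells, where the brightest gave a log2 ratio of 0.05. That of Sdhd had 462, 347 and 215, which is 2.15-fold higher, where the brightest gave -0.22. Both were lowest in untreated cells, with EGFP cells between the others. Of 132 measured probe sets of chain genes, these 2 were the ones at least 2-fold higher over untreated and 0 were 2-fold lower, against 1.84% and 5.21% of all 10833 measured probe sets with 1 symbol.

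**Figure D4:**
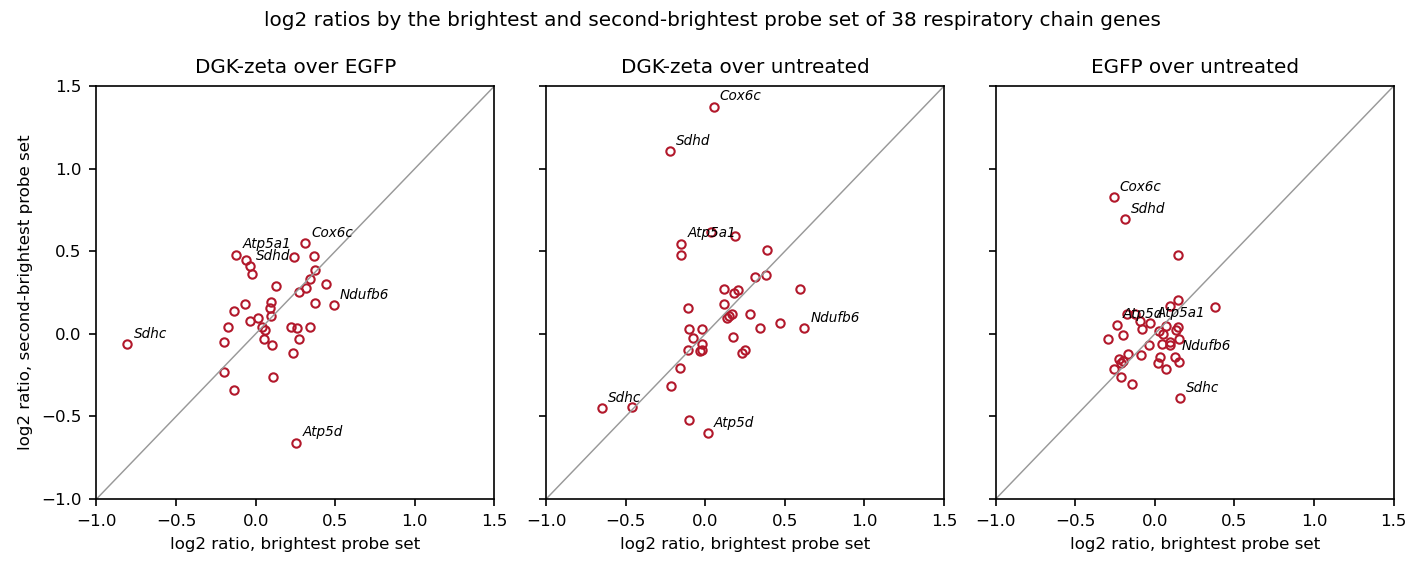
log2 ratio by the brightest probe set (horizontal) and by the second-brightest (vertical) for the 38 respiratory chain genes with both measured on all 3 arrays, with equality as a line. Most points cluster near 0, Atp5d and Sdhc lie off the line in the ratio of DGK-zeta over EGFP, and the second probe sets of Cox6c and Sdhd lie at 1.38 and 1.10 in that of DGK-zeta over untreated.

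Carriers and enzymes that feed the chain included a gene past 2-fold. Gpd2, the mitochondrial glycerol-3-phosphate dehydrogenase, which passes electrons from the cytosol to ubiquinone, had a signal of 1018 in DGK-zeta cells, against 2376 with EGFP and 3409.6 without treatment. That is 2.33-fold lower than EGFP and 3.35-fold lower than untreated, or 1.81-fold and 2.79-fold once scaled to equal medians of all probe sets with 1 symbol, from its 1 probe set. It was lowest in DGK-zeta cells and the 1 of 7 measured genes of its list that was 2-fold lower, with 0 higher, against 2.84% of all genes lower and 0.347% higher over EGFP, and 2.8% and 1.34% over untreated. Cycs, cytochrome c, had 11207, 9256 and 8401, a log2 ratio of 0.28 over EGFP and 0.42 over untreated, and its other 2 probe sets gave 0.09 and 0.44 over EGFP, and -0.09 and 0.49 over untreated. Etfa, a subunit of the electron transfer flavoprotein, was the highest of the list over EGFP at 0.44. ND5, the 1 mitochondrially encoded subunit with a named probe set here, belongs to complex I and had 12154 with DGK-zeta, 8808 with EGFP and 8042 in untreated cells, at 0.46 and 0.60.

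Among the related lists, the lowest ratio over EGFP was that of a regulator of mitochondrial genes, while over untreated it was that of Gpd2. Ppargc1b, a coactivator of mitochondrial biogenesis, had a signal of 179.6 in DGK-zeta cells, against 514 with EGFP and 442 without treatment, which is 2.86-fold lower than EGFP and 2.46-fold lower than untreated. Esrra, the nuclear receptor ERR-alpha that such coactivators work with, had 257 with DGK-zeta, 551 with EGFP and 443 in untreated cells, 2.14-fold and 1.72-fold lower. Both were lowest in DGK-zeta cells and each had 1 probe set. Under the 3 other scalings Ppargc1b was between 2.22-fold and 2.66-fold lower than EGFP, while Esrra was between 1.66-fold and 1.99-fold lower, under the 2-fold rule. Gabpa, the ETS-family factor, was the highest at 0.60 over EGFP with 783, 517 and 551, and its second probe set gave 0.25. Nrf1 had 219.7, 185 and 215 (0.24 over EGFP), Yy1 had 2975, 2501 and 2334 (0.25), and Tfam, which packages mitochondrial DNA and activates its transcription, had 1105, 937 and 742 (0.24). Ppargc1a, the best known coactivator of the pathway, was under the floor with 45.7, 51.7 and 43.1. Of the 14 measured regulators 8 were above 0 over EGFP and 6 below. Besides Ppargc1b and Esrra, those below were Gabpb1 at -0.36, Polg at -0.30, Polg2 at -0.23 and Pprc1 at -0.17. Among the 14 regulators 0 were 2-fold higher and 2 lower than EGFP, against 0.347% and 2.84% of all genes, with a median of 0.12. Their median over untreated was -0.01, with 0 higher and 1 lower, against 1.34% and 2.8%.

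With values under the floor set to it, the remaining mitochondrial lists stayed within 2-fold in all 3 comparisons. Of all measured genes, 0.347% were 2-fold higher and 2.84% lower over EGFP, and 1.34% and 2.8% for DGK-zeta over untreated. For EGFP over untreated the shares were 0.361% and 0.303%. Assembly factors of the complexes (33 measured) had medians of 0.06 over EGFP and -0.005 over untreated, from Ecsit, a complex I assembly factor, at -0.67 to Cox16, of complex IV, at 0.56 over EGFP. Enzymes of coenzyme Q synthesis had -0.13 and 0.09 (7 measured), with Coq5 lowest at -0.21 and Coq3 highest at 0.52 over EGFP. Coq10a, of the same list, had 119 with DGK-zeta, 132 with EGFP and 18.6 in untreated cells. It stayed within 2-fold over untreated only through the floor. Genes of the TCA cycle and pyruvate dehydrogenase had 0.15 and 0.11 (18 measured), with 12 above 0 in each. Their lowest was Ogdh, the E1 subunit of the 2-oxoglutarate dehydrogenase complex, with 695 with DGK-zeta, 1359 with EGFP and 1218 in untreated cells (-0.97 and -0.81), and their highest over EGFP was Idh3a, a subunit of isocitrate dehydrogenase, at 0.55. Mitochondrial ribosomal proteins had 0.10 over EGFP, with 46 of 72 above 0, and -0.02 over untreated, with 30 of 72 above 0. Over EGFP they ran from Mrpl10 at -0.78 to Mrps9 at 0.73.

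**Figure D5:**
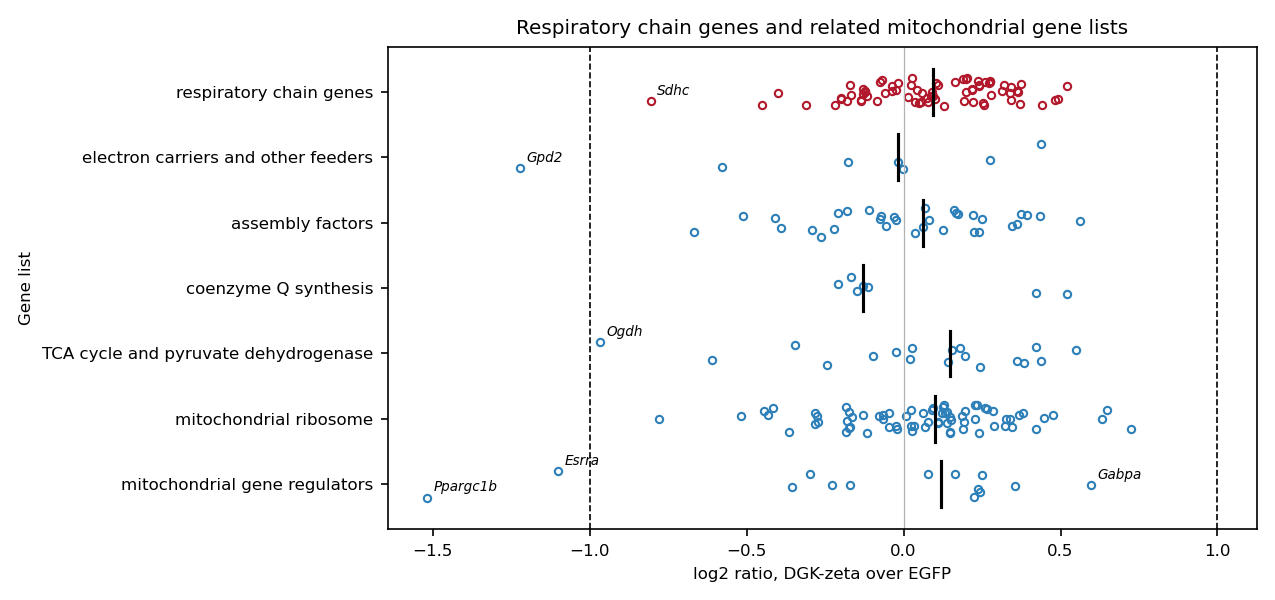
log2 ratio of DGK-zeta over EGFP for measured respiratory chain genes (red) and for measured genes of 6 related lists (blue), 1 point per gene, with list medians as black bars and 2-fold as dashed lines; points are spread at random in height within a row. Ppargc1b, Esrra and Gpd2 lie past 2-fold on the lower side, and no respiratory chain gene does.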

How the data were processed

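Biotin-labelled RNA of each of 3 cultures went onto 1 Affymetrix array, per the labels' protocols. The authors deposited 1 linear intensity per probe set, from MAS5 per the submitters' processing notes. The sources used here do not give its version. Probe sets were named from the platform annotation; those with several symbols were not used. Values under the floor, the pooled 50th percentile, were set to it before log2. Genes were counted past a fold of 2 or 1.5 among those measured on at least 1 of both arrays, and no test was run. The number of arrays limits the precision. Genes named with signals were those at least 2-fold apart, the highest and lowest of each complex and list over EGFP, isoform pairs, Cycs and Dgkz; others illustrate roles and were chosen after their values were seen. The chain genes, the lists and the bright-gene background were chosen with earlier results of these data known. Counting was tested on simulated data, with planted changes well past 2-fold in genes well above the floor. That does not check counts near the fold limits or near the floor. Alternatives were 3 other scalings (quantile normalization, and equal medians of all or of measured probe sets), 3 other floors, other choices of probe set, a 1.5-fold rule and leaving out symbols with no subunit role. Python 3.11.15, numpy 2.4.6, pandas 2.3.3 and matplotlib 3.10.9 were used.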

Additional observations from a re-analysis of the deposited data

How the results depend on the processing

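Counts of chain genes at least 2-fold apart were 0 in each direction of each comparison, and stayed 0 under all settings run except 3: without a floor 1 gene, Cox8b, was lower in DGK-zeta than in untreated cells, both under the floor (12% of all genes), second-brightest probe sets gave 2 higher genes in that comparison (2.31%), and the 1.5-fold rule gave 1 lower over EGFP (11.6%), and 2 higher and 1 lower over untreated (7.09% and 9.93%). The cause was not tested. The median log2 ratio of DGK-zeta over EGFP was 0.46 with equal medians of all probe sets of 1 symbol and 0.20 with equal medians of measured ones. Over untreated it was 0.29 with equal medians of all probe sets and -0.028, turned in sign from 0.027, with quantile normalization, and EGFP over untreated was -0.17 with equal medians of all probe sets. At 1.5-fold, in alternatives chosen after seeing the data, equal medians of all probe sets gave 23 higher and 0 lower genes over EGFP (24.3% and 3.81% of all genes), 8 higher and 0 lower in DGK-zeta over untreated (19.1% and 4.44%), and 1 lower in EGFP over untreated (2.6%). Equal medians of measured probe sets gave 3 higher over EGFP (7.15%) and 0 lower over untreated (7.31%), and quantile normalization 0 higher and 2 lower over untreated (9.57% and 6.75%). Second-brightest probe sets gave 4 higher in DGK-zeta over untreated (9.15%) and 2 higher in EGFP over untreated (4.44%), and the mean over probe sets 1 higher in DGK-zeta over untreated (5.24%). Of all 126 values under other settings, 104 stayed the same. For a median this meant a shift under 0.1 with the sign kept, and for a count no change. Most of the 126 were counts that were 0 in the main setting, so the 104 say little about the medians. The median over EGFP with quantile normalization is among the 104, although its order against all genes was reversed. No paired analysis was possible because each group has 1 array.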

Other observations

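Other dim probe sets of chain genes, named after their values were seen, separated both transfected cultures from untreated cells although the brightest probe set of the gene did not. The dimmest of 5 probe sets of Ndufa7, an accessory subunit of complex I, had a signal of 450.3 in DGK-zeta and 463 in EGFP cells, against 280.2 in untreated cells, and the other 4 gave log2 ratios of EGFP over untreated between -0.14 and -0.09. The dimmest of 3 probe sets of Atp5a1 had 213 in DGK-zeta and 211 in EGFP cells, against 102 in untreated cells, where it was under the floor. For Ndufab1, the mitochondrial acyl carrier protein, a dim probe set went the other way. It had 98.4 in DGK-zeta cells, under the floor, and 119 in EGFP cells, against 187 in untreated cells. The brightest had 3288, 3561 and 3667 in the same order. Past 1.5-fold in EGFP over untreated, 4 of 132 measured chain probe sets went up and 1 down. Of all 10954 measured probe sets, 4.46% went up and 3.00% down. In DGK-zeta over untreated, 9 of 132 went up and 3 down, against 7.95% and 14.2% of all 10833. Such differences were thus not more common among chain probe sets than among all. Outside the chain, and not dim, Mrpl33, a protein of the mitochondrial ribosome, had 2285 in DGK-zeta and 2119 in EGFP cells, against 1202 in untreated cells. This was the highest ratio of its list over untreated for both transfected cultures. No cause of these values was tested.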
